A study of Caenorhabditis elegans with 20 samples.

Results

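L4 larvae of Caenorhabditis elegans carrying letters A, B and C in their sample titles were compared with L4 larvae carrying letters D and E. The comparison held 10 of the 20 libraries of the series, of which 6 belonged to letters A to C (3 elt-2 overexpressing and 3 control) and 4 to letters D and E (2 of each strain). Libraries were placed in a set by the letter in the title alone. The labels give no date, culture, plate or sequencing run for a letter, so the sets are named here by their letters only. In the deposited table the 12 columns of letters A to C, from all groups of the series, stood before the first column of letter D or E. The separation was first noticed in these same counts, so the p-values below describe how far the sets lay apart relative to the spread between libraries and are not independent evidence of it.

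Expression was measured by 3SEQ, in which reads come from the 3′ ends of polyadenylated RNA of whole worms. Both strains carried rde-1(ne300) and unc-119(ed3). The elt-2 overexpressing strain carried an extrachromosomal array of several copies of elt-2 fused to GFP together with unc-119(+), and the control strain carried an array with unc-119(+) and no elt-2. The study's methods place the unc-54 3′UTR behind the fusion, so 3′-end reads of the transgene may be counted as unc-54 rather than as elt-2. Each strain was a single transgenic line, and arrays of this kind can be lost from some cells or animals. Synchronised larvae were grown on E. coli OP50 at the same nominal stage in both sets, and the rest of the series came from the same strains at Day 13 of adulthood. The study's methods describe 5 biological replicates per group but not when or how those of different letters were grown, and the p-values measure only the spread between these libraries.

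The L4 is the last larval stage. Each larval stage ends in a moult, in which the skin builds a new collagen cuticle and sheds the old one, and many genes of skin and cuticle rise and fall once per stage: furrow collagens early in the cycle, and shedding proteases around the moult itself. During L4 the hermaphrodite germline makes sperm and then switches to oocytes. At the moult to the adult the skin turns on adult collagens such as col-19, the uterus and eggshell genes become active, and the intestine starts to make yolk proteins. Genes of these processes therefore mark small steps of developmental time in a whole-worm sample. Counts from whole worms cannot tell fewer cells of a type from less RNA per cell.

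The libraries held 27319966 to 42317549 counts in letters A to C and 18653974 to 25967701 in letters D and E. The 3% most highly counted genes took 95.9% to 96.7% of the counts in letters A to C and 93.0% to 96.1% in letters D and E. The closing section gives the counts of called genes with all libraries thinned to the smallest and with totals that leave these genes out. Levels are given as counts per 1000000 (CPM) after TMM scaling, and a level that 3 counts would give was on average 0.0990 CPM in letters A to C and 0.110 CPM in letters D and E, which covers counting error only. elt-2, the intestinal GATA factor that the transgene carries, stood at 2.57 to 4.17 CPM in overexpressing and 0.618 to 0.958 CPM in control larvae of letters A to C. In letters D and E it stood at 6.22 and 7.98 CPM in overexpressing and 1.99 and 2.69 CPM in control larvae, so within each set every overexpressing library was above every control library.

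A majority of the genes tested differed between the sets. With strain as a covariate, edgeR's quasi-likelihood test with Benjamini-Hochberg adjustment (below, edgeR adjusted p) called 6157 of 10764 genes at a false discovery rate of 10%, which is 57.2%. Of these, 3098 were higher in letters A to C (28.8% of the genes tested) and 3059 were lower (28.4%). A change of at least 2-fold was found in 5232 of the called genes, 2534 higher and 2698 lower. In 1687 genes every library of letters A to C lay above every library of letters D and E (15.7%), and in 1945 every one lay below (18.1%). In a principal component analysis of the 10 libraries the leading axis, with 65.9% of the variance, parted the sets, and letters A to C lay between -64.7 and -45.8 and letters D and E between 69.8 and 94.3. The next axis, with 13.5%, parted the strains within letters A to C, while letters D and E lay between -9.20 and 8.19 on it. Called genes pointed the same way in both strains in 99.4% of cases. They were called on a set difference fitted over both strains, so the selection itself favoured this agreement and it is not separate support.

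**Figure D1:**
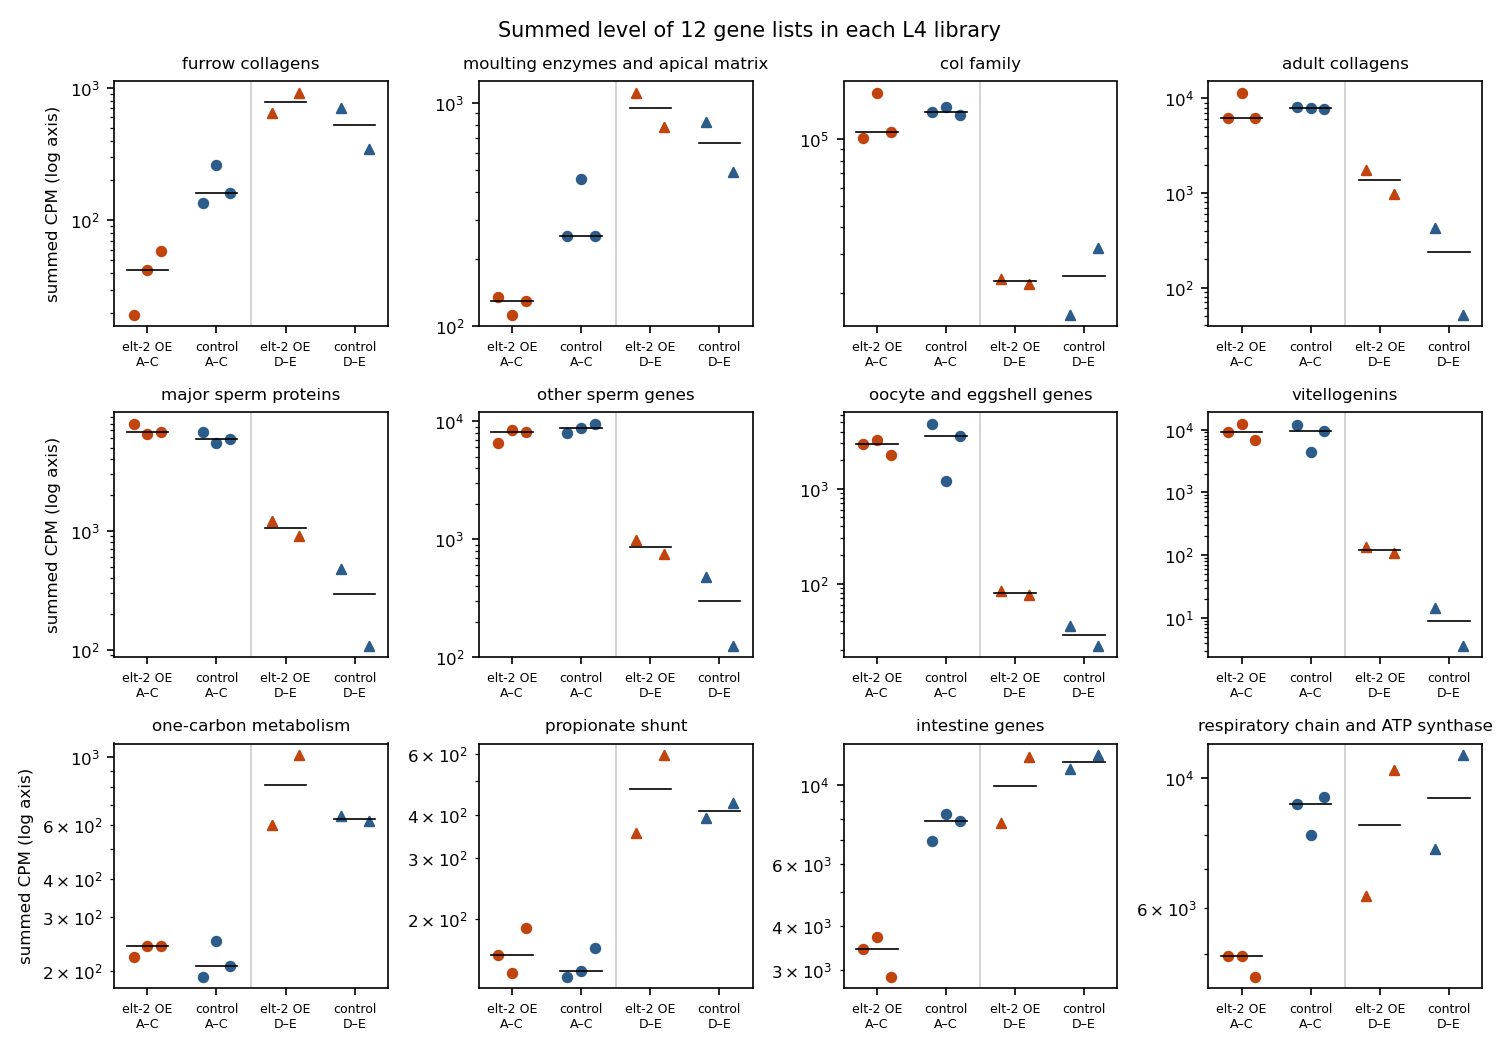
Summed level of 12 gene lists in each L4 library, in CPM on a log axis, for elt-2 overexpressing (elt-2 OE) and control worms of letters A–C (circles) and D–E (triangles). Each point is 1 library and each line the median of its group; yolk protein genes sum to 4418 CPM or more in letters A–C and to 134 CPM or less in letters D–E, while furrow collagens run the other way.

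Among the lists examined, furrow collagens, yolk proteins, major sperm proteins and oocyte and eggshell genes had the largest shares of members called in 1 direction. Adult collagens (75.0% higher), moulting enzymes (71.9% lower) and neuropeptides (70.1% lower) came next, and other cuticle lists were mixed. The lists together held 8.33% of the genes tested, so functions outside them were not ranked. The lists described below were written from general knowledge with earlier results of these data known, so no list has a test of its own. Counts of called members are to be read beside the shares over all genes tested, 28.8% higher and 28.4% lower. A member needed enough counts in about 2 libraries to be tested, so members that were measured only in the set where they were high are among those counted.

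**Figure D2:**
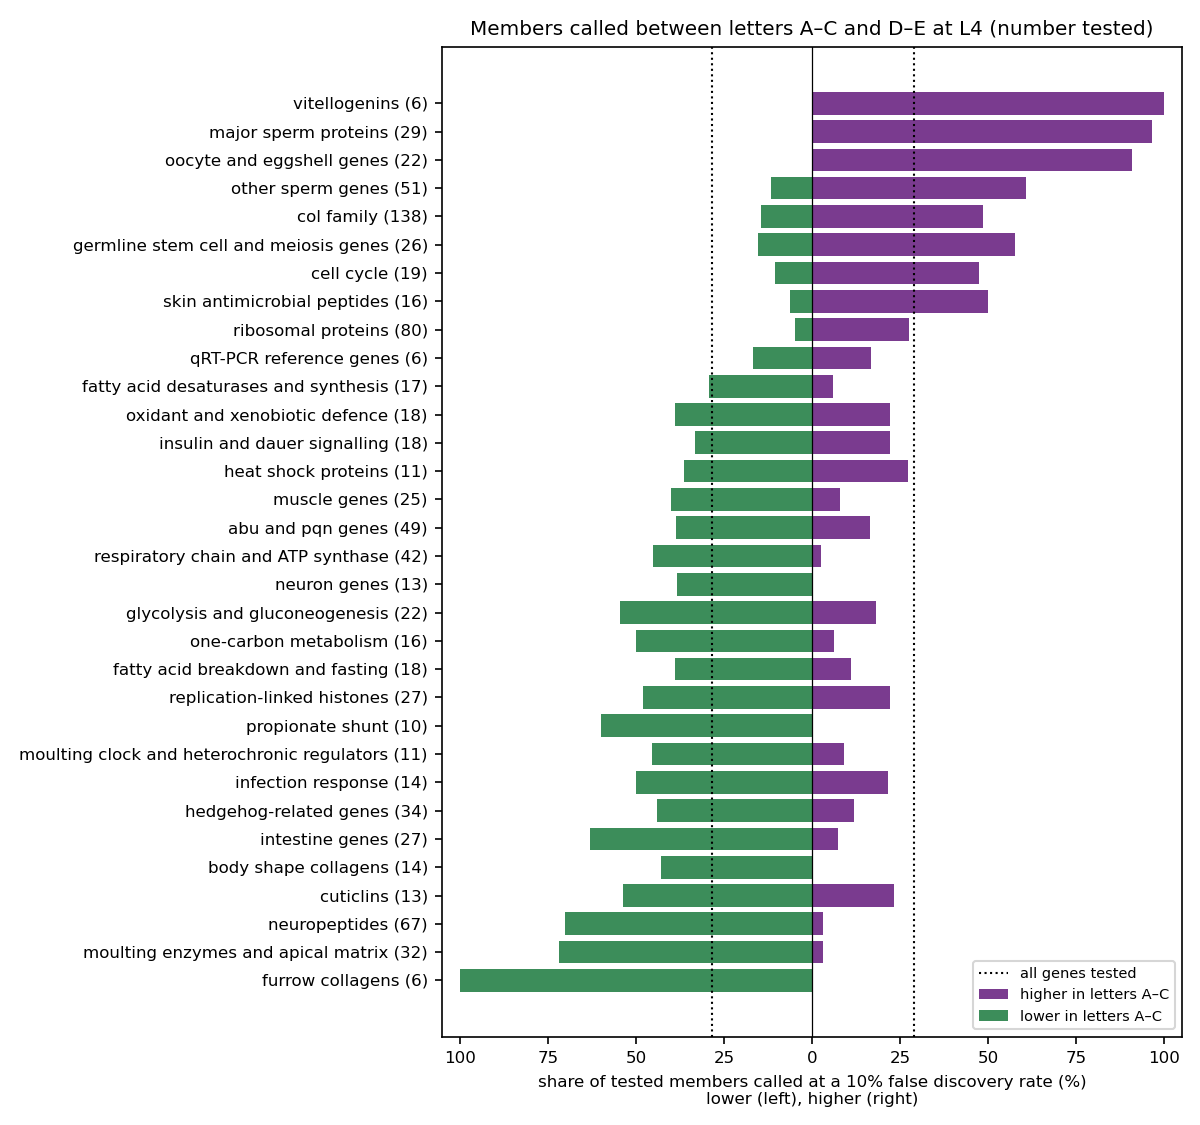
Share of tested members of each gene list that were higher (right, purple) or lower (left, green) in letters A–C than in letters D–E at a 10% false discovery rate, with the number tested in brackets and lists ordered by median log2 change. Dotted lines mark the shares over all genes tested, 28.8% higher and 28.4% lower; lists at the top (yolk proteins, major sperm proteins, oocyte and eggshell genes) were almost wholly higher and those at the bottom (furrow collagens, moulting enzymes, neuropeptides) mostly lower.

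Furrow collagens, which form the rings of the larval cuticle and are made early in a moulting cycle, were lower in letters A to C in 6 of 6 genes, with a median log2 change of -3.60 against 0.06 over all genes tested. Their summed level was 19.2, 96.2 and 261 CPM (lowest, median, highest) in letters A to C, against 652 and 921 CPM in overexpressing and 701 and 343 CPM in control larvae of letters D and E. The sets did not overlap, and overexpressing larvae of letters A to C (at most 58.3 CPM) lay below all control larvae of those letters (at least 134 CPM). dpy-7, a furrow collagen whose loss shortens the worm (X, 7536467 to 7537792), had 0.877, 6.09 and 14.7 CPM in letters A to C, against 57.7 and 85.2 CPM in overexpressing and 65.4 and 26.8 CPM in control larvae of letters D and E. Its log2 change was -3.62 ± 0.62 (SE, edgeR adjusted p = 0.000414). dpy-2, another furrow collagen, had 0.509 to 1.75 CPM in letters A to C and 12.2 to 36.0 CPM in letters D and E (log2 change -4.58 ± 0.46, edgeR adjusted p = 5.93e-06). dpy-8 and dpy-3, with log2 changes of -3.71 ± 0.59 and -3.01 ± 0.56, did not overlap between the sets either.

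The other named collagens that shape the body were less divided. Of 14 tested, 6 were lower (42.9%, against 28.4% over all genes tested), none was higher and 8 were not called. Their median log2 change was -1.21. Their summed level overlapped, at 1575 to 29570 CPM in letters A to C and 9704 to 16700 CPM in letters D and E. The called members included rol-8 (-1.69 ± 0.50), sqt-3 (-1.83 ± 0.66) and the blister collagen bli-1 (-2.33 ± 0.75). sqt-3 had 10.6 to 36.9 CPM in overexpressing and 100.7 to 290.1 CPM in control larvae of letters A to C, against 171 to 239 CPM in letters D and E. In control larvae alone, none of these 3 was called (edgeR adjusted p = 0.38 for rol-8, 0.895 for sqt-3 and 0.5 for bli-1). dpy-13 and dpy-5, among the most abundant cuticle collagens, showed log2 changes of -0.57 ± 0.56 and -0.81 ± 0.53 that were not called. Both were far higher in control library B, at 6384 and 7197 CPM, than in any other library of letters A to C.

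The summed level of the numbered collagen genes (the col family, most of the cuticle) was higher in letters A to C, while single members went both ways. The sum was 101500, 131400 and 163100 CPM (lowest, median, highest) in letters A to C, against 23320 and 22110 CPM in overexpressing and 15890 and 32020 CPM in control larvae of letters D and E. Of 156 col genes, 2 had no count in these larvae, 16 were too low to test, 67 were higher in letters A to C, 20 were lower and 51 were not called, with a median log2 change of 1.28. A mean of at least 1000 CPM, a limit chosen after the values were seen, was reached by 33 col genes in letters A to C and by 4 in letters D and E, of which 3 were the same genes. The extreme lower member was col-128, chosen after its value was seen, at -5.79 ± 0.65.

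col-19 is the standard adult collagen, silent in larval skin and switched on at the last moult (ZK1193.1, X, 421707 to 422691). It had 3652, 6190.4 and 11072 CPM in letters A to C, against 105 and 96.9 CPM in overexpressing and 1.19 and 1.05 CPM in control larvae of letters D and E. The log2 change was 8.44 ± 1.30 (edgeR adjusted p = 0.00018), a ratio of mean levels of 132. The sets did not overlap, and within letters D and E both overexpressing libraries lay far above both control libraries. col-106 (IV, 1459896 to 1460786) had 3122, 5286 and 14945 CPM in letters A to C, against 69.0 and 69.3 CPM in overexpressing and 4.01 and 4.51 CPM in control larvae of letters D and E, a log2 change of 8.29 ± 0.74. col-184 (7.18 ± 0.67), col-8 (10.17 ± 1.13), col-119 (10.11 ± 1.71) and col-143 (10.89 ± 1.19) behaved alike, with every library of letters A to C above every library of letters D and E. col-7 and col-62, also adult collagens, were higher by 6.03 ± 1.21 and 6.25 ± 1.07 but reached at most 9.01 CPM, and col-38 of the same list was not called (-0.04 ± 1.23). In control larvae alone col-38 was called higher (3.13, edgeR adjusted p = 0.0354).

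**Figure D3:**
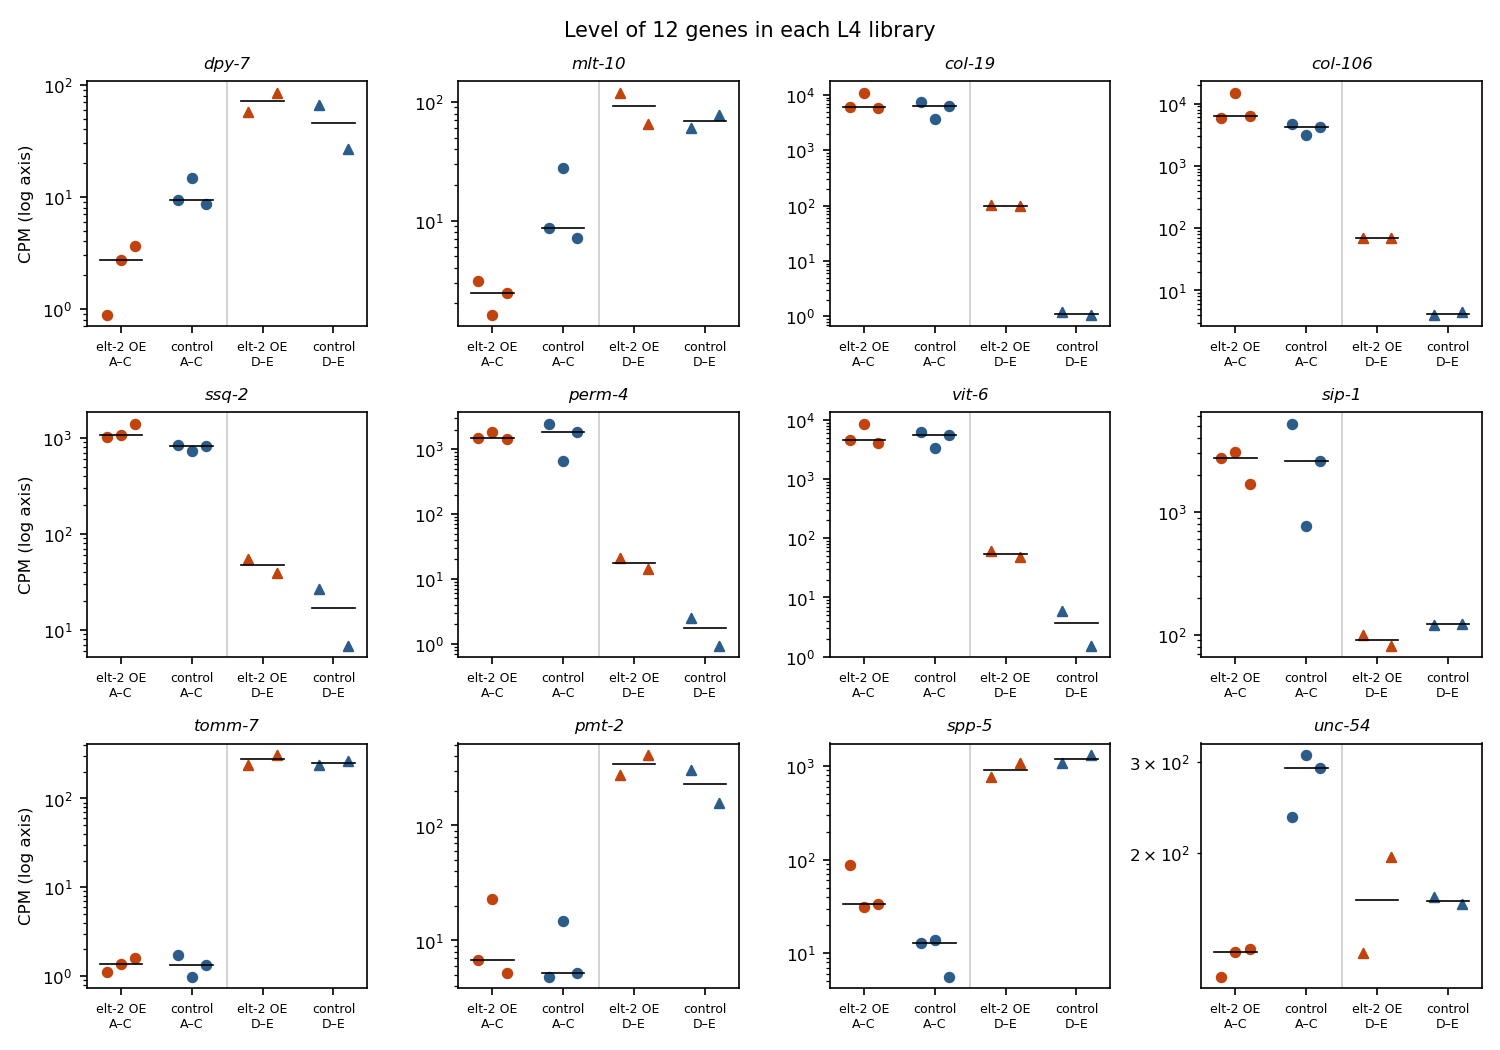
Level of 12 genes in each L4 library, in CPM on a log axis, with groups, symbols and median lines as for the gene lists. Larval cuticle and moult genes (dpy-7, mlt-10) were lower in letters A–C, adult collagens, sperm, eggshell and yolk genes (col-19, col-106, ssq-2, perm-4, vit-6) higher, and the body-wall myosin gene unc-54 lay in the same range in both sets. In overexpressing worms unc-54 may include reads of the transgene, which ends in the unc-54 3′UTR.

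Genes that time the moults were weakly counted, and the called ones were mostly lower in letters A to C. Of 17 regulators, 6 were too low to test, 5 were lower, 1 was higher and 5 were not called. lin-42, the worm counterpart of period that cycles with the moults, had 0.0566, 0.386 and 1.42 CPM in letters A to C, against 1.66 and 2.48 CPM in overexpressing and 2.28 and 1.96 CPM in control larvae of letters D and E (log2 change -2.22 ± 0.50, edgeR adjusted p = 0.00272). myrf-1, a membrane-bound transcription factor needed for moulting, was lower by 2.13 on the log2 scale (SE 0.31) with no overlap. The exception was lin-41 (1.72 ± 0.51), an RNA-binding heterochronic factor that also acts in oocytes, and lin-29, which drives the adult skin programme, was at -0.92 ± 0.39 (edgeR adjusted p = 0.0632). The call of lin-29 was lost under 8 alternatives, among them control larvae alone (-0.38, edgeR adjusted p = 0.629). The nuclear receptor nhr-23, a main driver of each moult, was not called (-0.13 ± 0.39). lin-42 and lin-29 overlap genes on the opposite strand, and their reads cannot be told apart where counting ignored strand.

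Enzymes and matrix proteins of the moult fell together. Of 38 genes, 6 were too low to test, 23 were lower in letters A to C, 8 were not called and 1, the receptor-like egg-6 (1.18 ± 0.38), was higher, with a median log2 change of -2.16. Their summed level was 112, 194 and 459 CPM in letters A to C, against 1114 and 782 CPM in overexpressing and 826 and 492 CPM in control larvae of letters D and E, with no overlap. mlt-10, a nematode protein that peaks before each moult (II, 546705 to 552032), had 1.59, 5.07 and 27.7 CPM in letters A to C, against 120.0 and 65.2 CPM in overexpressing and 61.0 and 77.2 CPM in control larvae of letters D and E. Its log2 change was -3.92 ± 0.66 (edgeR adjusted p = 0.000348), and the highest library of letters A to C was control B. dpy-11, a thioredoxin-like enzyme of collagen processing, changed by -5.29 ± 0.41, and it was lower at Day 13 of adulthood as well (-3.34). mlt-8 changed by -4.90 ± 0.54, and the apical matrix proteins fbn-1 and noah-1 by -3.35 ± 0.41 and -3.38 ± 0.42. nas-36 and nas-37, astacin proteases that open the old cuticle at the end of the moult, were not called.

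Skin proteins related to Hedgehog, whose genes cycle with the moults, split in the same direction. Of 34 tested, 15 were lower, 4 higher (grd-3, grd-15, grl-27 and grl-23) and 15 not called. grl-15, grl-24 and wrt-10 changed by -6.11 ± 0.62, -5.91 ± 0.42 and -5.43 ± 0.53. wrt-10 stood at 0.452 to 2.17 CPM in letters A to C and at 16.0 to 72.3 CPM in letters D and E. Of the mlt-10 relatives, 3 of 12 could be tested and 2 were lower, among them mltn-1 (-5.13 ± 0.53). Cuticlins, the collagen-free cuticle proteins, were mixed at 7 lower and 3 higher of 13, and 95.9% of their summed level came from cut-2, which was not called (-0.54 ± 0.56). The glutamine-rich abu and pqn genes, several of which line the pharynx, had 19 lower (38.8%) and 8 higher (16.3%) of 49. Over all genes tested these shares were 28.4% and 28.8%. In this list pqn-94 was at -6.52 ± 0.63 and pqn-8 at 2.36 ± 0.31.

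Sperm genes were higher in letters A to C. The major sperm proteins, which drive the crawling of nematode sperm, were higher in 28 of 29 tested genes, with a median log2 change of 3.66, and msp-56 was the one not called. Their summed level was 5511, 6647 and 7983 CPM in letters A to C, against 1204 and 906 CPM in overexpressing and 479 and 107 CPM in control larvae of letters D and E. These genes are nearly identical copies, so the split of counts among them is uncertain while their sum is less so. msp-64 changed by 3.81 ± 0.47 and msp-3 by 3.64 ± 0.45. Among other sperm genes 31 were higher, 6 lower and 14 not called of 51. ssq-2, a sperm-specific protein gene (IV, 4996142 to 4997559), had 742, 937 and 1415 CPM in letters A to C, against 54.9 and 39.2 CPM in overexpressing and 26.9 and 6.75 CPM in control larvae of letters D and E (log2 change 5.09 ± 0.48, edgeR adjusted p = 3.73e-06). ssq-4 and ssq-1 changed by 5.63 ± 0.50 and 4.88 ± 0.52. fer-1, a membrane fusion gene of sperm activation, stayed under 1 CPM in all libraries and was not called (0.34 ± 0.49).

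Oocyte, eggshell and early embryo genes were higher in 20 of 22, with none lower and a median log2 change of 3.26; pie-1 and cpg-2 were not called. Their summed level was 1201, 3116 and 4843 CPM in letters A to C, against 83.3 and 75.8 CPM in overexpressing and 35.4 and 21.9 CPM in control larvae of letters D and E. perm-4, a protein of the eggshell's outer layer (IV, 1121494 to 1125107), had 666, 1672 and 2491 CPM in letters A to C, against 20.7 and 14.2 CPM in overexpressing and 2.53 and 0.912 CPM in control larvae of letters D and E. Its log2 change was 7.98 ± 0.89 (edgeR adjusted p = 1.5e-05). The eggshell proteoglycan cpg-1 changed by 4.75 ± 0.60, the oocyte RNA regulators mex-3 and cgh-1 by 3.66 ± 0.48 and 3.42 ± 0.40, and the yolk receptor rme-2 by 2.84 ± 0.46. ule-1, named for secretion in the uterus, was among the 8 largest rises at 9.55 ± 1.10, with 9.18 to 269 CPM in letters A to C and 0.0361 to 0.643 CPM in letters D and E. Control library B was the lowest of letters A to C for perm-4, cpg-1, mex-3, cgh-1, rme-2 and ule-1.

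Yolk protein genes were higher in 6 of 6, with a median log2 change of 7.60. vit-6 (IV, 8261157 to 8266459) had 3392, 5106 and 8620.2 CPM in letters A to C, against 59.9 and 47.4 CPM in overexpressing and 5.996 and 1.504 CPM in control larvae of letters D and E, a log2 change of 8.31 ± 0.95 (edgeR adjusted p = 1.75e-05). vit-2 had 775, 1735 and 3138 CPM in letters A to C, against 38.9 and 33.6 CPM in overexpressing and 4.12 and 0.365 CPM in control larvae of letters D and E (7.29 ± 1.18). vit-4 (7.92 ± 0.98) and vit-1 (5.61 ± 0.75) have close relatives among the yolk genes with which reads can be shared. In each of the 6 yolk genes every library of letters A to C lay above every library of letters D and E, against 15.7% of all genes tested.

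Germline genes moved less far and not all one way. Of 26 genes of germ cell proliferation, P granules and meiosis, 15 were higher, 4 were lower (htp-1, fog-3, htp-3 and deps-1) and 7 were not called. The P-granule protein pgl-1 had 213, 313 and 606 CPM in letters A to C, against 42.6 and 57.0 CPM in overexpressing and 42.3 and 44.4 CPM in control larvae of letters D and E (2.86 ± 0.37). The meiosis regulator gld-1 changed by 2.67 ± 0.37, the germline Notch receptor glp-1 by 1.60 ± 0.47 (not called in control larvae alone, 0.92, edgeR adjusted p = 0.316), and the chromosome axis protein htp-1 by -2.81 ± 0.31. Cell cycle genes were higher in 9 and lower in 2 of 19, with cyclin E (cye-1) at 2.04 ± 0.36. Core and variant histone genes were higher in 6 and lower in 13 of 27, with his-40 at 2.67 ± 0.33 and his-37 at -2.13 ± 0.25. Some histones are near-identical copies, and most lack the poly-A tail by which 3SEQ captures RNA.

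Metabolic lists held more lower than higher genes in letters A to C, but many members were not called. The nuclear genes of the respiratory chain and ATP synthase had 19 lower, 1 higher (cox-19) and 22 not called of 42, with a median log2 change of -0.51. nuo-2, a subunit of complex I, stood at 0.862 to 2.16 CPM in letters A to C and 32.1 to 63.8 CPM in letters D and E (-4.91 ± 0.34, edgeR adjusted p = 5.8e-07), and sdhb-1 of complex II changed by -3.95 ± 0.35. isp-1 of complex III and atp-4 of ATP synthase changed by -3.04 ± 0.29 and -3.07 ± 0.35. The summed level overlapped, at 4558 to 9276 CPM in letters A to C and 6284 to 10980 CPM in letters D and E. This rested on the scaling: with CPM of the library total in place of TMM the sets did not overlap (log2 ratio of means -0.94). Genes of the mitochondrial genome were not analysed here.

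Sugar and fat metabolism split by gene. Of 22 genes of glycolysis and gluconeogenesis 12 were lower and 4 higher (aldo-2, gpd-4, hxk-1 and gpd-1). Lactate dehydrogenase (ldh-1) had 4.95 to 11.8 CPM in letters A to C and 96.2 to 171 CPM in letters D and E (-4.30 ± 0.35), and enolase (enol-1) changed by -2.82 ± 0.28. gpd-2 changed by -3.61 ± 0.34, but the gpd genes are close copies and can share reads. Among fatty acid desaturases and synthesis genes 5 of 17 were lower (29.4%, near the 28.4% over all genes tested), led by the omega-3 desaturase fat-1 (-2.24 ± 0.31). Their median log2 change was 0.04, and the lipid regulator sbp-1 alone was higher (1.11 ± 0.28). fat-7, which responds to cold and fasting, was not called (0.34 ± 0.42). Of 18 tested genes of fatty acid breakdown and fasting 7 were lower (38.9%, against 28.4% over all genes tested) and 2 higher (acdh-8 and acdh-2). The peroxisomal oxidase acox-1.1 changed by -3.25 ± 0.46, while acs-2, a strong fasting marker, was not called (-0.74 ± 0.41).

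The summed levels of propionate breakdown and of the one-carbon cycle were lower without overlap. Of 10 genes of propionate breakdown 6 were lower and none higher, and their summed level was 136, 150 and 188 CPM in letters A to C, against 354 and 596 CPM in overexpressing and 390 and 432 CPM in control larvae of letters D and E. alh-8, hphd-1 and ech-6 changed by -2.42 ± 0.28, -1.29 ± 0.27 and -1.37 ± 0.31. acdh-1, whose RNA is a usual reporter of low vitamin B12, stood at 16.7 to 33.05 CPM in letters A to C and 16.7 to 27.1 CPM in letters D and E (0.06 ± 0.29). Of 16 one-carbon genes 8 were lower and 1, cth-2, was higher. Their summed level was 192 to 252 CPM in letters A to C and 602 to 1019 CPM in letters D and E, and the adenosylhomocysteine hydrolase gene ahcy-1 alone held 42.2% of the mean. pmt-2, a methyltransferase of phosphatidylcholine synthesis (V, 4628580 to 4635263), had 4.797, 5.997 and 22.8 CPM in letters A to C, against 272 and 413 CPM in overexpressing and 302 and 158 CPM in control larvae of letters D and E (-4.85 ± 0.51). Methionine synthase (metr-1) and methylene-tetrahydrofolate reductase (mthf-1) changed by -1.80 ± 0.30 and -1.58 ± 0.26.

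Intestinal genes were lower in 17 of 27 and higher in 2 (elt-7 and mtl-1), with a median log2 change of -1.07. spp-5, a pore-forming antimicrobial protein of the gut (X, 7319937 to 7320354), had 5.56, 22.5 and 87.4 CPM in letters A to C, against 762 and 1067 CPM in overexpressing and 1085 and 1326 CPM in control larvae of letters D and E (-5.61 ± 0.61). act-5, the actin of the microvilli, changed by -3.35 ± 0.35, the protease asp-5 by -2.85 ± 0.30 and the lysozyme lys-4 by -2.53 ± 0.32. elt-2 itself changed by -1.30 ± 0.28 (edgeR adjusted p = 0.00176). The sets overlapped for elt-2 with the strains pooled. Within each strain every library of letters A to C lay below every library of letters D and E. Without the strain covariate elt-2 was not called (-1.14, edgeR adjusted p = 0.119). The gut esterase ges-1 was not called (-0.73 ± 0.38). The summed intestinal level overlapped between the sets with the strains pooled, but not within either strain. It was 2866 to 3725 CPM in overexpressing and 6961 to 8258 CPM in control larvae of letters A to C. In letters D and E it was 7834 and 12030 CPM in overexpressing and 11100 and 12190 CPM in control larvae.

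Of the called members named here that ran against most of their list, elt-7, cth-2, aldo-2, mtl-1, gpd-4 and cox-19 lost their call under 10 to 16 of the alternative analyses each, grl-27 and cnc-3 under 6, and acdh-2 under 4. deps-1, egg-6, flp-23, grd-3, grl-23, lin-41, nlp-26, tni-3 and unc-27 lost it under 1 or 2.

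Among other tissues the neuropeptides stood out. Of 67 tested, 47 were lower in letters A to C and 2 were higher (flp-23 and nlp-26), with a median log2 change of -1.70. nlp-15 stood at 0.106 to 0.420 CPM in letters A to C and 4.97 to 8.65 CPM in letters D and E (-4.58 ± 0.35), and flp-18 changed by -3.54 ± 0.28. Neuron genes were lower in 5 of 13 (38.5%, against 28.4% over all genes tested). These included ida-1 of dense-core vesicles (-4.95 ± 0.48) and the tubulin mec-12 (-1.94 ± 0.27). Muscle genes were lower in 10 (40.0%), higher in 2 (unc-27 and tni-3) and not called in 13 of 25. The myosin myo-3 changed by -1.75 ± 0.27, whereas unc-54, the main body-wall myosin, stood at 115 to 310.3 CPM in letters A to C and 128 to 196 CPM in letters D and E (0.18 ± 0.32). The unc-54 counts of overexpressing larvae may include reads of the transgene, which ends in the unc-54 3′UTR, so they are not a measure of muscle alone.

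Stress and defence genes showed no common direction. Antimicrobial peptides of the skin were higher in 8 and lower in 1 (cnc-3) of 16, with nlp-28 at 3.37 ± 0.49 and nlp-27 at 2.50 ± 0.48. The small heat shock protein sip-1, which is made in oocytes and embryos, had 770.0, 2671 and 5239 CPM in letters A to C, against 100.4 and 80.8 CPM in overexpressing and 121 and 122 CPM in control larvae of letters D and E (4.68 ± 0.52). Of the other heat shock genes hsp-25 changed by -1.46 ± 0.29. Oxidant defence had 7 lower (38.9%, against 28.4% over all genes tested) and 4 higher of 18 (22.2%, against 28.8%), with a median log2 change of 0.02. In this list gst-5 was at -6.31 ± 0.47 and the mitochondrial peroxiredoxin prdx-3 at -3.97 ± 0.34. Infection response genes had 7 lower and 3 higher of 14, among them the lysozyme lys-7 (-2.98 ± 0.47). Of 18 insulin and dauer genes 6 were lower (33.3%) and 4 higher (22.2%), near the shares over all genes tested. The insulin-like peptide ins-6 had at most 0.0727 CPM in letters A to C but 0.935 to 1.45 CPM in letters D and E, while the kinase akt-1 changed by 2.11 ± 0.33.

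Ribosomal protein genes, which held most of the counts, were higher in 22 and lower in 4 of 80, with 54 not called and a median log2 change of 0.33. Those higher made up 27.5%, near the 28.8% over all genes tested. A few members changed far more, in both directions. rpl-29 had 211, 451 and 585 CPM in letters A to C, against 3329 and 4274 CPM in overexpressing and 3464 and 4988 CPM in control larvae of letters D and E (-3.18 ± 0.33). rpl-24.2 changed by -3.43 ± 0.29 and rpl-37 by 2.84 ± 0.38.

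The extreme changes, among called genes with at least 10 CPM in the higher set and no overlap, were 573 higher and 607 lower. The largest rise was in F43G6.7, which had 6.37, 22.8 and 47.7 CPM in letters A to C and no count in any library of letters D and E. Against a floor of 3 counts per library it was at least 242-fold higher. Of the 8 largest rises 4 were col genes (col-143, col-8, col-119 and col-95) and the others were Y37D8A.19, ZK813.1, ule-1 and F43G6.7. The largest falls had a different character and included tomm-7, a subunit of the mitochondrial import pore (III, 7859613 to 7860159). It had 0.970, 1.36 and 1.74 CPM in letters A to C, against 239 and 312 CPM in overexpressing and 239.7 and 264 CPM in control larvae of letters D and E. Its log2 change was -7.60 ± 0.34 (edgeR adjusted p = 8.61e-08) and it was 195-fold lower by mean level. Y48E1B.8, Y54F10AM.6, F49F1.5, C01A2.2, M163.8, clec-265 and pqn-94 were the other falls of this group, and tomm-7 overlaps a gene on the opposite strand.

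The question whether strain changed the set difference was put to the interaction of strain and set. Across the 10764 genes the set difference in overexpressing larvae and that in control larvae had a correlation of 0.791, given as a description across genes that are not independent replicates. edgeR called 175 genes (1.63%), of which 155 had a more negative set difference in overexpressing larvae (1.44%) and 20 a more positive one (0.186%). At an unadjusted p under 0.05 there were 1825 genes. This split rested on the scaling. When totals left out the 3% most highly counted genes, the median interaction over all genes shifted to 0.62 from -0.04. Then 221 genes were called, 153 of them with the more positive set difference in overexpressing larvae. It also rested on single libraries, as the count was 11 without control library E and 717 without control library D.

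Of the 155 genes with the negative interaction 67 were also higher in letters A to C, and 21 were col genes. col-139 had 3679 to 6873 CPM in letters A to C, against 66.7 and 72.2 CPM in overexpressing and 1.81 and 1.64 CPM in control larvae of letters D and E (interaction -5.75 ± 0.50 on the log2 scale, edgeR adjusted p = 0.000619). In letters A to C the strains overlapped, and in letters D and E overexpressing larvae were higher. col-19, col-81, col-129 and col-122 showed the same layout, with interactions of -6.06, -6.35, -4.49 and -4.75. The same order of libraries was seen in the summed yolk genes (134 and 109 CPM in overexpressing, 14.5 and 3.56 CPM in control larvae of letters D and E) and in the summed sperm and oocyte lists. The positive interactions named here were all in weakly counted genes. rncs-1, fipr-1, fipr-2, C56A3.4 and clec-60 had interactions of 3.11, 3.10, 2.86, 3.27 and 4.31, and fipr-2 reached the highest level of the 5 in any L4 library, 15.2 CPM. Without control library E none of these 5 positive interactions was called (edgeR adjusted p = 0.153 to 0.22), and each also lost its call without control library C.

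**Figure D4:**
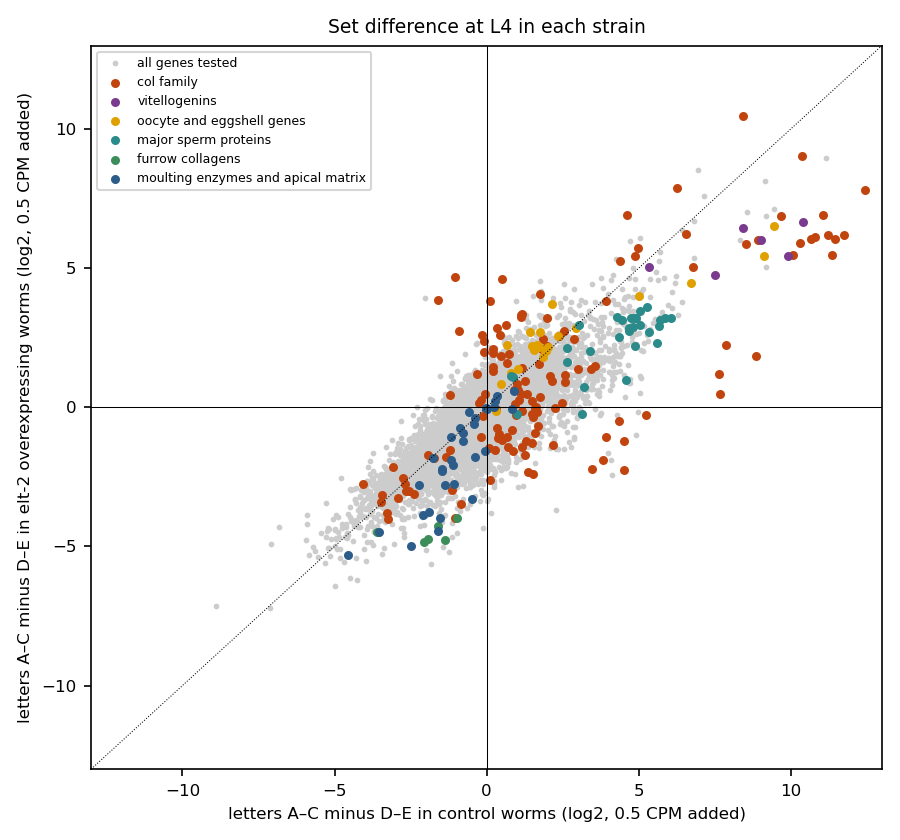
Difference between letters A–C and D–E at L4 in elt-2 overexpressing worms (vertical) against that in control worms (horizontal), each the difference of mean log2 CPM with 0.5 CPM added, for 10764 genes with 6 lists coloured and a dotted line of equality. Many col and yolk genes lie right of the line, with a larger difference in control worms, and furrow collagens lie below it.

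The same letters could be compared at Day 13, in 6 libraries of letters A to C and 4 of letters D and E that share no sample with the L4 larvae. There 4088 of 12093 genes were called between the sets (33.8%), 2060 higher in letters A to C (17.0%) and 2028 lower (16.8%). Of the 6157 genes called at L4, 6096 were tested at Day 13. Among them 2553 were called in the same direction at Day 13, 1184 higher and 1369 lower, 209 in the opposite direction and 3334 not at all. The Day 13 libraries held 22338800 to 35201428 counts in letters A to C and 10749795 to 19978086 in letters D and E. Their calls came from the fit over all 20 libraries, and depth was not matched to L4 for these counts of genes. Across 10627 genes the 2 set differences had a correlation of 0.564, as a description.

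**Figure D5:**
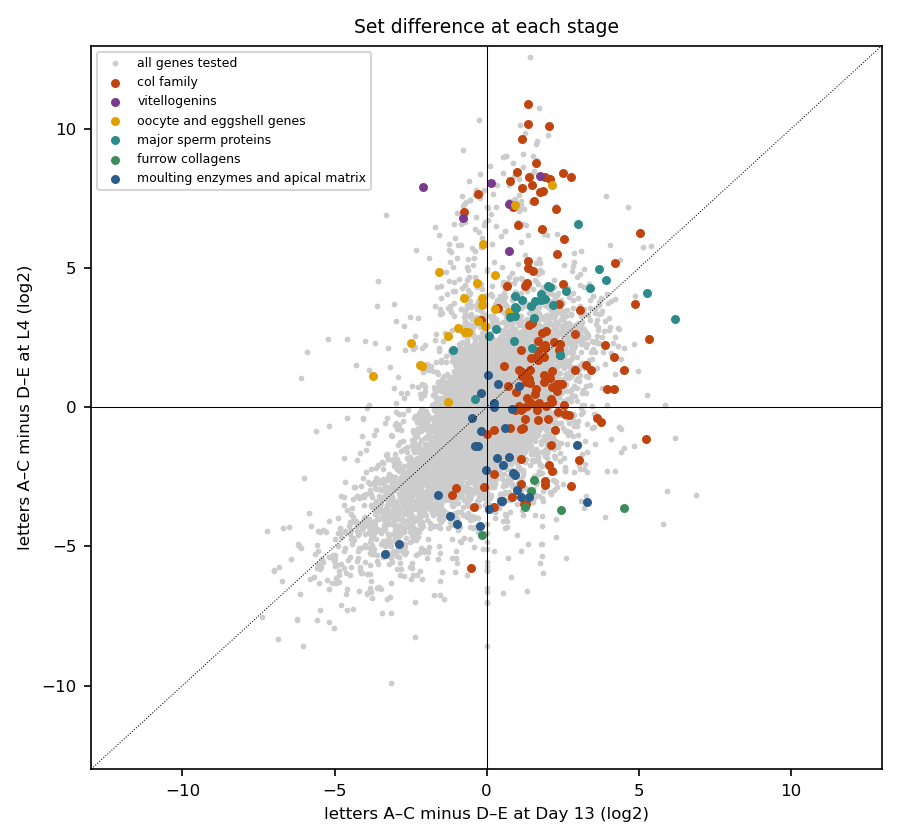
Difference between letters A–C and D–E at L4 (vertical) against that at Day 13 (horizontal), in log2, for genes tested at both stages with 6 lists coloured and a dotted line of equality. Yolk and oocyte genes lie high at L4 and mostly near 0 at Day 13, furrow collagens lie low at L4 and above 0 at the median at Day 13, and a band of other genes runs down along the line.

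Which functions differed depended on the stage. The interaction of stage and set was called in 1987 of 12093 genes (16.4%), 931 with a more positive difference at L4 (7.70%) and 1056 with a more negative one (8.73%). This split turned with the processing: 46.9% of the calls were more positive at L4 as reported, 62.1% with no filter, 56.2% when totals left out the most counted genes and 52.8% with thinned counts. Without overexpressing library E 867 were more positive and 532 more negative. All 6 furrow collagens and all 6 yolk genes were among the called genes, together with 21 of 22 oocyte and eggshell genes, 18 of 32 moulting enzymes, 11 of 14 body shape collagens, 52 of 138 col genes and 25 of the neuropeptides. The median set difference of furrow collagens was -3.60 at L4 and 1.52 at Day 13, and that of yolk genes was 7.60 at L4 and 0.43 at Day 13. Oocyte and eggshell genes were at 3.26 and -0.46, and moulting enzymes at -2.16 and 0.30. The medians of the major sperm proteins were 3.66 at L4 and 1.58 at Day 13. Those of the col genes were 1.28 and 1.68, but 20 col genes were lower at L4 and none at Day 13, where 72 were higher, and of the 52 called for the interaction 24 had a more positive difference at L4. Summed furrow collagens were at most 20.5 CPM in any Day 13 library, so the changes there lie in a low range.

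The genes with the clearest dependence on stage were chosen by their adjusted p. At L4 spex-3 had 55.5 to 1595 CPM in letters A to C and 0.866 to 2.25 CPM in letters D and E. Its set difference on the log2 scale was more positive by 6.8 at L4 than at Day 13. col-179, C50E3.11, F17E9.4 and Y62H9A.5 had interactions of 7.67, 8.08, 7.37 and 8.49. In the other direction wrt-2, a Hedgehog-related skin protein, was lower in letters A to C at L4 (-2.33 ± 0.36) and higher at Day 13 (2.88), an interaction of -5.31. C18B2.3, Y73E7A.8, dur-1 and ptr-25 had interactions of -5.39, -10.16, -7.41 and -3.80. Every one of these 10 genes was called for stage under all alternatives that gave it a value.

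A group of genes differed between the sets at both stages by more than 3 on the log2 scale, a limit chosen after the data were seen. It held 351 genes, 300 lower and 51 higher in letters A to C. The lower ones included tomm-7 (-7.60 at L4, -6.23 at Day 13), the arginine methyltransferase prmt-1 (-5.15 and -4.69), spp-5 (-5.61 and -4.80), citrate synthase cts-1 (-4.99 and -3.33), prdx-3 (-3.97 and -3.23) and pmt-2 (-4.85 and -3.24). tomm-7 had 1.01 to 2.72 CPM in letters A to C and 63.7 to 184 CPM in letters D and E at Day 13. prmt-1 had 13.2 to 21.9 CPM in letters A to C and 463 to 687 CPM in letters D and E in larvae, and at Day 13 it had 16.231 to 41.4 CPM in letters A to C and 541 to 791 CPM in letters D and E. For both genes the sets lay far apart at both stages. Also in the lower group, and named above under their functions, were dpy-11 (-5.29 and -3.34), nuo-2 (-4.91 and -3.47), ida-1 (-4.95 and -3.77) and pqn-94 (-6.52 and -4.575). The higher ones included 6 major sperm protein genes, the sperm genes ssq-4 (5.63 and 3.11) and spch-2 (3.84 and 3.39), and col-159 (3.73 and 4.88).

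Of the 351 genes 30 were members of the lists (8.55%), near the share of list members among all genes tested (8.33%). The lower group held no gene of the furrow, body shape or adult collagens, vitellogenins, oocyte genes, ribosomal proteins, glycolysis or muscle, 5 neuropeptides and 2 genes of the respiratory chain. An opposite-strand gene overlapped 27% of the lower and 51% of the higher group, against 33% of all genes tested, in the WBcel235 annotation. The X chromosome held 18% of the lower and 9.8% of the higher group, against 11.9% of the genes tested. Among all genes called at L4, it held 17.1% of those lower and 6.0% of those higher in letters A to C.

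The marker of both arrays, unc-119, stood at 5.90 to 6.73 CPM in overexpressing larvae of letters A to C and 9.46 and 19.4 CPM in those of letters D and E, but at most 0.327 CPM in any control larva. unc-119 was not called between the sets (-0.70 ± 0.61), nor was rde-1 (0.53 ± 0.50). Of 6 genes that served the study as qRT-PCR references, pmp-3 was higher and iscu-1 lower in letters A to C, and tbb-2, let-70, cdc-42 and htz-1 were not called.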

How the data were processed

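RNA from whole worms was sequenced by 3SEQ, and the deposited table gave whole-number counts per gene that the authors made from reads aligned with Bowtie 0.12.7 (per the submitters' processing notes). The genome build, gene annotation, use of strand and treatment of duplicate reads are not given in the sources used here. The table held 20 library columns, read through their titles, and 3 columns without a header that were not used. Coordinates were taken from the Ensembl 115 annotation of WBcel235 by gene name (97.6% of 21383 genes placed), and reads of genes that overlap on opposite strands, or of near-identical copies, cannot be told apart.

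Models were fitted in R 4.3.3 with the robust quasi-likelihood test of edgeR 4.0.16, after its filter on low counts and TMM scaling, at a Benjamini-Hochberg false discovery rate of 10%, with strain as covariate for the L4 sets, an interaction of strain and set at L4, and an interaction of stage and set over all 20 libraries. Levels are TMM-scaled CPM, and log2 differences between strains and the plots add 0.5 CPM. DESeq2 1.42.0 and limma 3.58.1 served in alternatives, and the scripts were tested on simulated data. Alternatives were other scalings and filters, DESeq2, thinned counts, each library left out, each strain alone, no strain covariate, summed letters and a replicate block. Named genes were the 8 largest changes in each direction among called genes with at least 10 CPM and no overlap, up to 4 called members of each list with the smallest adjusted p, fixed anchor genes, and 5 genes in each direction of each interaction. Other genes were named after their values were seen, namely members that ran against their list, were not called or dominated its level, col-128, and prmt-1, cts-1, spch-2 and col-159 of the group that differed at both stages. The sets, members and gene lists were chosen with earlier results of these data known.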

Additional observations from a re-analysis of the deposited data

Results flagged for a closer look

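In groups of 4 to 6 libraries, 416 sets of L4 values were examined for a library far from the others, and 46 were found. The cut would flag about 5% of sets of independent normal values. These values are CPM without log2, pool both strains and come from named genes and lists, so the count cannot be set against that rate. Control library B of letters A to C was the distant library in 12. It was the highest of letters A to C for the summed body shape collagens (29600 CPM) and cuticlins (2390 CPM), and for dpy-13 (6380 CPM), dpy-5 (7200 CPM), col-38 (4190 CPM), cut-2 (2360 CPM), bli-1 (3.91 CPM), mlt-10 (27.7 CPM), mlt-8 (1.88 CPM), grl-27 (88.7 CPM) and mec-12 (4.72 CPM), and the lowest for nlp-27 (545 CPM). Overexpressing library A of letters A to C was distant for htp-1 (4.10 CPM), isp-1 (9.30 CPM), spp-5 (87.4 CPM), ida-1 (1.73 CPM), C50E3.11 (1.44 CPM), msp-56 (19.5 CPM), cpg-2 (73.0 CPM), flp-23 (1.3 CPM) and Y48E1B.8 (2.91 CPM). Overexpressing library B was distant for the summed adult collagens (11500 CPM), col-129 (11100 CPM), col-106 (14900 CPM), col-184 (11900 CPM) and cts-1 (8.27 CPM). Control library A was distant for summed insulin and dauer genes (36.1 CPM), gpd-4 (37 CPM), mtl-1 (24.6 CPM) and htz-1 (98.4 CPM), and control library C for acs-2 (3.80 CPM) and acdh-2 (2.17 CPM).

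In letters D and E, overexpressing library D was distant for summed neuron genes (97.0 CPM), F17E9.4 (0.0584 CPM), aldo-2 (999 CPM) and M163.8 (4.41 CPM), and overexpressing library E for summed one-carbon genes (1020 CPM), pgl-1 (57.0 CPM), ech-6 (234 CPM) and egg-6 (1.06 CPM). Control library D was distant for glp-1 (0.470 CPM), ida-1 (24.6 CPM) and flp-23 (0.144 CPM), and control library E for summed cuticlins (1860 CPM), cut-2 (1810 CPM) and elt-7 (1.37 CPM).

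The set difference of some genes differed between strains, by the interaction of strain and set on the log2 scale with edgeR. With its sign kept, it was lower in overexpressing than in control larvae for col-19 (-6.06), col-139 (-5.75), col-81 (-6.35), col-129 (-4.49) and col-122 (-4.75). It was more positive in overexpressing larvae for clec-60 (4.31), rncs-1 (3.11), fipr-1 (3.10), fipr-2 (2.86) and C56A3.4 (3.27), which can include a change of sign between strains. The set difference also differed between L4 and Day 13. It was more positive at L4 for spex-3 (6.8), col-179 (7.67), C50E3.11 (8.08), F17E9.4 (7.37) and Y62H9A.5 (8.49). It was more negative at L4 for wrt-2 (-5.31), C18B2.3 (-5.39), Y73E7A.8 (-10.16), dur-1 (-7.41) and ptr-25 (-3.80).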

How the results depend on the processing

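The count of genes that differed between the L4 sets stayed between 4519 and 6623 under the alternatives (6157 as reported), with 5536 to 6129 when 1 library was left out and 5533 with counts thinned to the smallest library. Deviations of the strains from their group means correlated at 0.321, 0.022 and 0.109 for letters A, B and C and at 0.371 for D and for E, whose values are equal because each group has 2 libraries. Since letter B was under 0.1 and no label ties a letter to a shared culture, letters were not taken as pairs. The replicate block gave 6210 genes with the letter as a random block. The count that depended on strain was 175 as reported, 680 with no filter, 855 with DESeq2 and 605 with the letter as a fixed replicate block, and it ran from 11 (without control library E) to 717 (without control library D) when 1 library was left out, so it is not stable. The median interaction moved to 0.62 when totals left out the most counted genes, and the direction of the split turned. The count that depended on stage was 1987 as reported, 1311 with thinned counts and 3051 with the replicate block, and 1399 to 2235 with 1 library left out. With DESeq2 it was 2573. Its split turned to 62.1% more positive at L4 with no filter, 56.2% with totals that leave out the most counted genes, 52.8% with thinned counts, 51.2% with DESeq2 size factors and 50.8% without control library D, and to 867 more positive against 532 more negative without overexpressing library E. The causes were not tested. Genes that were not called, or narrowly called, in the fit as reported changed sign under some alternatives. In control larvae alone these were dpy-13 (0.46), dpy-5 (0.03), fat-7 (-0.48), acdh-1 (-0.12), rde-1 (-0.35), rncs-1 (-1.33), fipr-2 (-0.84), col-38 (3.13), cut-2 (0.03), cnc-3 (0.21) and tbb-2 (0.18). In overexpressing larvae alone they were fer-1 (-0.43), unc-54 (-0.41), fipr-1 (1.29), nas-36 (-0.09), msp-56 (-0.14), pie-1 (-0.22) and let-70 (0.24). Of these, col-38 and rncs-1 were called in control larvae alone (edgeR adjusted p = 0.0354 and 0.0319). fipr-1 was called in overexpressing larvae alone (edgeR adjusted p = 0.0263). With totals that leave out the most counted genes rncs-1 was at -0.03 and col-38 at 0.09, with thinned counts rncs-1 was at -0.04, without the strain covariate fipr-1 was at 0.05 and col-38 at 0.68. With the libraries of a letter summed, acdh-1 was at -0.06, col-38 at 0.46, msp-56 at -0.08 and pie-1 at -0.13, and with the replicate block nhr-23 was at 0.01 and col-38 at 0.64. Leaving out 1 library gave -0.42 to 0.27 for nhr-23, -0.01 to 0.63 for fat-7, -0.06 to 0.26 for acdh-1, -0.43 to 0.48 for rncs-1, -0.03 to 1.03 for fipr-2, -1.05 to 0.84 for col-38, -0.07 to 0.65 for msp-56, -0.01 to 0.55 for pie-1 and -0.44 to 0.07 for let-70. Some summed levels moved with CPM of the library total in place of TMM. The sets then no longer overlapped for the respiratory chain (log2 ratio of means -0.94), glycolysis (-0.58), fatty acid breakdown (-1.33) and neuropeptides (-0.77). They came to overlap for germline genes (0.67) and heat shock proteins (0.81), and ribosomal proteins turned to -0.13. Propionate (-2.02), one-carbon (-2.19) and col genes (1.93) stayed without overlap. Levels under 0.0990 CPM in letters A to C or 0.110 CPM in letters D and E rest on fewer than 3 counts on average.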
